A study of Homo sapiens with 6 samples.

Results

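In all, 10 genes of the insulin and FOXO axis were followed in the RNA-Seq data of MRC5 lung fibroblasts, chosen by symbol from the 58676 gene identifiers of the deposited count table. They are the FOXO transcription factors *FOXO1*, *FOXO3* and *FOXO4*, the insulin receptor substrates *IRS1* and *IRS2*, and the FOXO target genes *PIK3IP1*, *SESN1*, *SESN3*, *PDK4* and *CCNG2*. Each of the 10 symbols matched 1 identifier, and all 10 passed the filter of at least 10 counts summed over the libraries. All samples were MRC5, a single human fetal lung fibroblast line, kept for 24 h in conditioned medium (CM) of ATIIER:KRASV12 cells, an alveolar type II epithelial line carrying a RAS construct that 4-hydroxytamoxifen (4-OHT) switches on. For 3 libraries the epithelial cells were controls (control ATII CM), and for 3 they were treated with 4-OHT (4-OHT ATII CM), for a time not given in the labels. The routine growth medium of the fibroblasts held serum, itself a source of insulin-like factors. Whether the CM of either group held serum is not given in the sources used here. No library analysed here came from fibroblasts given 4-OHT alone, so an effect of 4-OHT carried over in the CM and an effect of factors from the RAS-activated cells cannot be told apart. The comparison is between the media alone, as TGF-β was added to neither group.

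Insulin and IGF-1 act through receptor tyrosine kinases that phosphorylate the IRS proteins, which recruit PI3K and lead to activation of the kinase AKT. AKT phosphorylates FOXO factors, which then bind 14-3-3 proteins and leave the nucleus. When PI3K and AKT signaling is low, FOXO factors enter the nucleus and raise genes of cell cycle exit, stress resistance, autophagy and fuel switching, some of which in turn restrain or restore insulin signaling. FOXO activity is therefore set largely by where the protein is, and the mRNA level of a FOXO gene does not report it.

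Library totals ranged from 17691849 to 26389449 counts, and beyond counting noise replicates of a gene typically varied by 4.36% (the biological coefficient of variation). Control ATII CM replicate 2 had the fewest counts and stood apart on the second principal component (23.3% of the variance), while the first (43.4%) separated the groups. The Spearman correlation between gene length and a library's deviation from the mean was 0.285, -0.306 and 0.148 in the controls and between -0.0519 and -0.0245 in 4-OHT ATII CM, and its part in the results was examined by removing the trend. All 10 fibroblast markers were tested, and 5 rose and 1 fell with 4-OHT ATII CM, a share of 60% beside 5.72% of all genes. They had a summed level of 41501 to 45013 CPM in control ATII CM and 43446 to 45194 CPM in 4-OHT ATII CM. Of 12 epithelial markers 6 were too low to be tested, *KRT5*, *SFTPA1* and *NKX2-1* had no count in any library, and the summed level was 97.8 to 104 CPM in control ATII CM and 95.7 to 103 CPM in 4-OHT ATII CM.

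Of the 10 genes, 4 were higher in 4-OHT ATII CM and 0 were lower in edgeR's quasi-likelihood test at an adjusted p below 0.05. The 4 were *PIK3IP1*, *SESN3*, *CCNG2* and *PDK4*, all of them FOXO targets, and they rose between 1.17-fold and 1.69-fold. None of the genes for FOXO factors or IRS proteins passed the threshold, and neither did the fifth target, *SESN1*. Of all 19072 genes tested, 5.72% were called in either direction, 2.95% as higher and 2.76% as lower. The 10 genes and the lists below were chosen with earlier results of these data known. Their shares are therefore a description and not an independent test. The median log2 fold change of the 10 genes was 0.20, beside -0.0020 for all genes tested. The values of the groups did not overlap in 5 of the 10 genes, where this was so for 22.1% of all genes. Without adjustment, 6 of the 10 had a p below 0.05, the 4 called genes, *SESN1* and *IRS2*, as did 3306 of all 19072 genes. In bulk RNA, a change in every cell and a change in the share of cells that express a gene cannot be told apart.

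**Figure D1:**
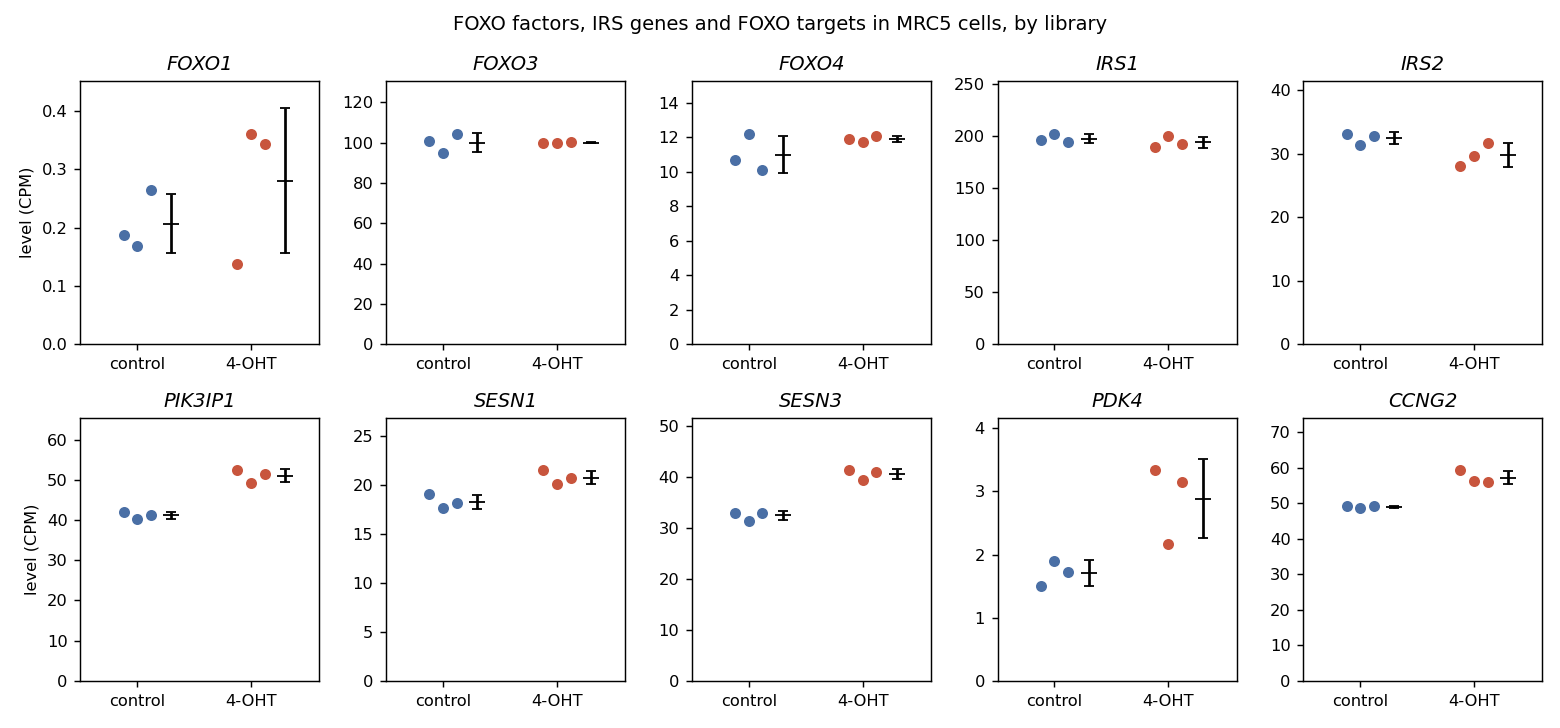
Level of each of the 10 genes in CPM (scaled counts, y axis from 0) in the 3 libraries of control ATII CM (blue) and of 4-OHT ATII CM (red), with the mean and SD of each group in black. *PIK3IP1*, *SESN1*, *SESN3*, *PDK4* and *CCNG2* have all 3 red points above all 3 blue points, while *FOXO3*, *FOXO4*, *IRS1*, *IRS2* and *FOXO1* overlap.

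The promoters of the 10 genes and of 33 further FOXO targets, whose values follow, were searched for the letters TGTTTAC or its reverse complement GTAAACA, the core that FOXO factors bind, and for TGTTTTG or CAAAACA, the core of the insulin response element. The windows, from RefSeq on GRCh38.p14, run from 250 bases before a transcription start to 50 bases after it, and no letters of one motif can match the other. The FOXO core was found for 2 of the 10 genes (*PIK3IP1* and *FOXO4*) and for 4 of 27 further targets with a window (*TXNIP*, *HBP1*, *MXI1* and *BCL2L11*), beside 4.19% of all 27305 genes. The insulin response core was found for 1 of the 10 genes (*IRS2*) and for 2 of the 27 (*KLHL24* and *GABARAPL1*), beside 6.05% of all genes. Of the further targets with a FOXO core, *BCL2L11* was not called (edgeR's adjusted p = 0.214), and its site is not printed. The sites of the 10 genes and of the called targets with a FOXO core are printed below in 30 bases each, on the strand of the gene with the core in capitals, to show where a called gene carries the core near its start and that it also stands at the uncalled *FOXO4*.
PIK3IP1: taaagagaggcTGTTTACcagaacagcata
FOXO4: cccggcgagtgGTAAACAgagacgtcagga
IRS2: gagtcacatgtTGTTTTGctcttcttagtt
TXNIP: tcgggctcctgGTAAACAaggaccgggcag
HBP1: catcttctccaGTAAACAcaacacaaaagt
MXI1 upstream start: cgccacctcgtTGTTTACcccgtgccgggg
MXI1 downstream start: cgcggggagagGTAAACAaaccacgcgcgg

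Distances are to RefSeq starts, which can differ from the gene positions of the deposited counts given below. The *PIK3IP1* site (chr22:31292454-31292483, minus strand) begins its core at base 17 after one of the annotated starts. The *FOXO4* site (chrX:71095863-71095892, plus strand) begins its core at base 24 after a RefSeq start. This site lies before the deposited position of *FOXO4*, which begins at 71096197. The core at *IRS2* (chr13:109786605-109786634, minus strand) begins 40 bases before the start, that of *TXNIP* (chr1:145996685-145996714, minus strand) 124 bases before and that of *HBP1* (chr7:107168819-107168848, plus strand) 173 bases before. *MXI1* has a core 151 bases before one start (chr10:110210069-110210098, plus strand) and another 2 bases before a second start (chr10:110225983-110226012, plus strand). Among the called genes of the first 10, *PIK3IP1* therefore has the core in its window, while *SESN3*, *CCNG2* and *PDK4* do not have these letters there. A match is a description of the sequence, and binding was not measured.

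Among the FOXO factors, *FOXO3* (ENSG00000118689, chromosome 6 of GRCh38, 108559835 to 108684774, plus strand) was the main transcript. Its level in CPM, counts scaled to TMM-normalized library sizes, was 101, 94.9 and 104 in the 3 control libraries and 99.9, 99.7 and 100.3 after 4-OHT ATII CM, each in the order of the replicate numbers. The group means were 100.01 ± 4.82 and 99.99 ± 0.321 CPM (SD, n = 3 each), with the 4-OHT ATII CM libraries lying inside the range of the controls. The log2 fold change was -0.0019 (standard error, SE, of 0.0404, edgeR's adjusted p = 0.991), and its 95% interval ran from -0.088 to 0.084, which bounds a change of *FOXO3* mRNA to between 0.941-fold and 1.06-fold. The value took the other sign without control replicate 1 (0.00082), without control replicate 3 (0.025) and without 4-OHT replicate 1 (0.0035), always near 0. A part of the *FOXO3* transcript (74.2%) aligned to transcripts of *FOXO3B* with 98.3% identity. Reads from *FOXO3* and this copy may not be separable, and *FOXO3B* itself was listed with 47 to 92 counts per library.

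*FOXO4* (ENSG00000184481, chromosome X, 71096197 to 71103535, plus strand) was at 10.7, 12.2 and 10.1 CPM in control ATII CM and 11.9, 11.7 and 12.1 CPM in 4-OHT ATII CM. Control replicate 2 was the highest of all 6 libraries, so there was overlap, and the change of 0.12 on the log2 scale (SE 0.0868, adjusted p = 0.542) was not separated from 0, with a 95% interval from -0.065 to 0.30. It was 0.055 without control replicate 3 and 0.20 without control replicate 2. *FOXO1* (ENSG00000150907, chromosome 13, 40469953 to 40666597, minus strand), the best studied FOXO factor in liver and muscle, was close to absent from these fibroblasts. It had 4, 3 and 6 counts in control ATII CM and 3, 9 and 9 counts in 4-OHT ATII CM. At this depth no change of *FOXO1* could be detected, and the 95% interval of its change ran from 0.611-fold to 2.995-fold (edgeR's adjusted p = 0.759). The log2 ratio of *FOXO1* to *FOXO3* counts was -8.78 ± 0.232 in control ATII CM and -8.48 ± 0.702 after 4-OHT ATII CM (SD, n = 3 each), a difference of 0.30 with an exact two-sided permutation p of 0.4. A part of the *FOXO1* transcript (23.4%) aligned to a transcript of ENSG00000288542 with 100% identity, and no copy of *FOXO1* was found on the 261 alternate contigs searched.

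The receptor substrates differed in level and neither was called. *IRS1* (ENSG00000169047, chromosome 2, 226731317 to 226799759, minus strand), which couples the insulin and IGF-1 receptors to PI3K, was the most abundant of the 10 genes. It was at 196, 202 and 194 CPM in control ATII CM and 189, 199.9 and 192 CPM in 4-OHT ATII CM. The libraries of both groups mixed in order, with a log2 fold change of -0.025 (SE 0.0355, adjusted p = 0.789, 95% interval -0.10 to 0.050). *IRS2* (ENSG00000185950, chromosome 13, 109752698 to 109786568, minus strand), which serves the same receptors and is a classical FOXO target in liver, had lower values. It was at 33.2, 31.4 and 32.9 CPM in control ATII CM and 27.999, 29.7 and 31.8 CPM in 4-OHT ATII CM. Replicate 3 of 4-OHT ATII CM lay above the lowest control, and the log2 fold change of -0.12 (SE 0.0566) had a p of 0.0485 and an adjusted p of 0.284 from edgeR, and was -0.075 without 4-OHT replicate 1. *IRS2* thus did not share the direction of the called targets. The log2 ratio of *IRS2* to *IRS1* counts, which needs no library size, was -2.60 ± 0.0731 in control ATII CM and -2.70 ± 0.0891 in 4-OHT ATII CM (SD, n = 3 each), a difference of -0.098 with an exact two-sided permutation p of 0.2 (0.3 adjusted over 3 ratios), where 0.1 is the smallest p that 3 libraries against 3 allow.

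*PIK3IP1* (ENSG00000100100, chromosome 22, 31281593 to 31292534, minus strand) encodes a membrane protein that binds the catalytic subunit of PI3K and restrains it, and its promoter window holds the FOXO core printed above. Its level was 42.1, 40.2 and 41.2 CPM in control ATII CM and 52.3, 49.3 and 51.5 CPM in 4-OHT ATII CM. The gap between the groups was wider than the spread within either. The means were 41.1 ± 0.936 and 51.1 ± 1.56 CPM (n = 3 each, SD), a log2 fold change of 0.31 (SE 0.0437, edgeR's adjusted p = 0.000454), or 1.24-fold. Over 14 alternative tests, filters and sets of libraries its adjusted p stayed at or below 0.00583.

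The sestrins are stress-induced proteins that restrain mTORC1. *SESN3* (ENSG00000149212, chromosome 11, 95165513 to 95232541, minus strand), the member most closely tied to FOXO, was at 32.9, 31.4 and 33.0 CPM in control ATII CM and 41.2, 39.3 and 40.9 CPM in 4-OHT ATII CM. Its lowest value after 4-OHT ATII CM lay above the highest control, and the log2 fold change was 0.32 (SE 0.0475, edgeR's adjusted p = 0.000717), nearly that of *PIK3IP1*. *SESN1* (ENSG00000080546, chromosome 6, 108986437 to 109094819, minus strand), which p53 also raises, lies 301663 bases from the end of *FOXO3*. It was at 19.0, 17.6 and 18.1 CPM in control ATII CM and 21.5, 20.1 and 20.7 CPM in 4-OHT ATII CM. Its groups did not overlap either, yet the log2 fold change of 0.18 (SE 0.0653) had an adjusted p of 0.133, and it was called in 0 of 14 alternatives. The log2 ratio of *SESN3* to *SESN1* counts was 0.83 ± 0.0370 in control ATII CM and 0.96 ± 0.0219 in 4-OHT ATII CM (SD, n = 3 each). This ratio was higher in all 3 libraries of 4-OHT ATII CM, with a difference of 0.13 and an exact permutation p of 0.1 (adjusted 0.3), the smallest that this test can give with 3 libraries against 3.

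*CCNG2* (ENSG00000138764, chromosome 4, 77157151 to 77433388, plus strand) encodes cyclin G2, an unusual cyclin that accompanies cell cycle arrest. It was at 49.1, 48.6 and 49.2 CPM in control ATII CM and 59.2, 56.2 and 55.9 CPM in 4-OHT ATII CM. The controls were almost identical and every library of 4-OHT ATII CM lay above them, with a log2 fold change of 0.22 (SE 0.0408, edgeR's adjusted p = 0.00388), or 1.17-fold. *PDK4* (ENSG00000004799, chromosome 7, 95583499 to 95596491, minus strand) encodes a kinase that switches off pyruvate dehydrogenase and so spares glucose. It had the largest fold change of the 4 called genes and the fewest reads among them, with 32, 34 and 39 counts in control ATII CM and 73, 54 and 83 counts in 4-OHT ATII CM. These correspond to 1.71 ± 0.203 and 2.89 ± 0.630 CPM (SD, n = 3 each), with replicate 2 of 4-OHT ATII CM nearest to the controls. The log2 fold change was 0.76 (SE 0.204, edgeR's adjusted p = 0.0393), with a 95% interval from 0.32 to 1.19. *PDK4* was not called with DESeq2 or limma-voom (adjusted p = 0.0620 each), or without control replicate 1 (0.143), control replicate 3 (0.114), 4-OHT replicate 1 (0.140) or 4-OHT replicate 3 (0.154), while its log2 fold change stayed between 0.65 and 0.93 with 1 library left out.

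**Figure D2:**
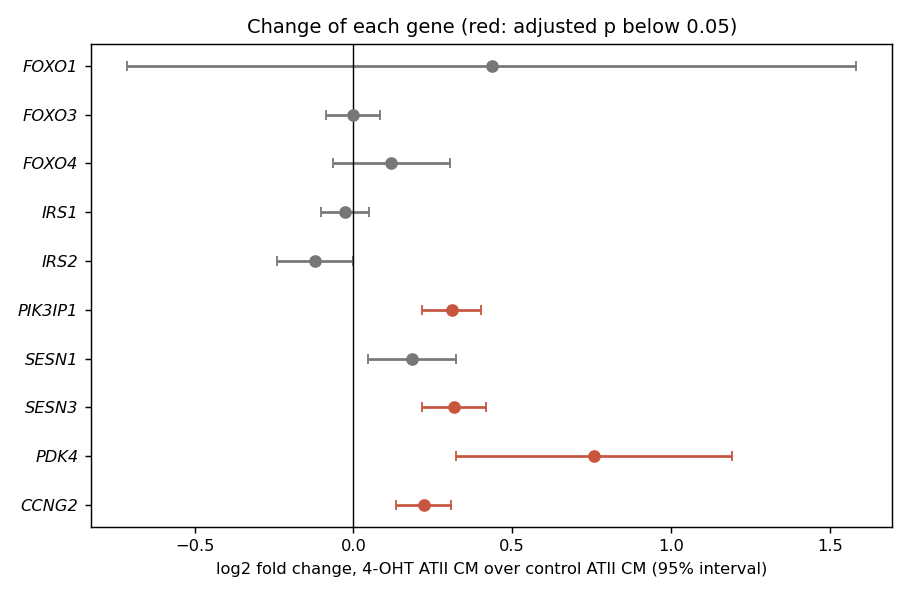
Log2 fold change of the 10 genes in 4-OHT ATII CM over control ATII CM (x axis), with points for the edgeR estimates and bars for their 95% intervals, red where the adjusted p was below 0.05. *PDK4*, *SESN3*, *PIK3IP1* and *CCNG2* lie above 0, *FOXO3* and *IRS1* have narrow intervals around 0, and the interval of *FOXO1* is the widest, from -0.71 to 1.58.

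Levels were compared between genes per length, as RPKM (CPM divided by the length of a gene's merged exons in kilobases). In control ATII CM the order was *IRS1* (19.8 ± 0.429), *FOXO3* (12.95 ± 0.624), *PIK3IP1* (10.8 ± 0.246), *CCNG2* (6.55 ± 0.0409), *IRS2* (3.99 ± 0.120), *SESN1* (3.56 ± 0.143), *FOXO4* (3.19 ± 0.315), *SESN3* (3.07 ± 0.0840), *PDK4* (0.378 ± 0.0448) and *FOXO1* (0.0332 ± 0.00822; RPKM, SD, n = 3 each). *FOXO4* overlapped its neighbors *SESN1* and *SESN3*, and the other neighbors in this order did not overlap. In 4-OHT ATII CM *PIK3IP1* reached 13.4 ± 0.410 RPKM and overlapped *FOXO3* at 12.95 ± 0.0416 RPKM. *SESN3* moved from below *IRS2* to the same range, at 3.83 ± 0.0960 beside 3.67 ± 0.232 RPKM, and *IRS2* also overlapped *FOXO4* (3.45 ± 0.0454 RPKM). *SESN1* at 4.05 ± 0.135 RPKM lay above *SESN3*, with no overlap.

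**Figure D3:**
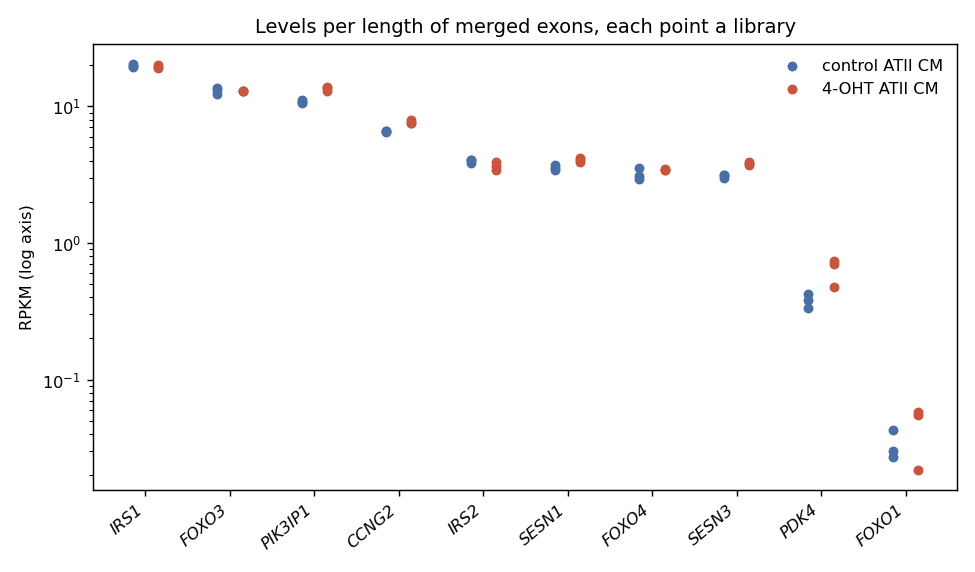
Level of each gene in RPKM (log axis) in the 3 libraries of control ATII CM (blue) and of 4-OHT ATII CM (red), ordered by the mean in control ATII CM. *IRS1* and *FOXO3* are the highest, *FOXO1* is the lowest at 0.0332 RPKM in control ATII CM, and *PIK3IP1* reaches the level of *FOXO3* in 4-OHT ATII CM.

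Over the 6 libraries, the log2 CPM of *PIK3IP1*, the gene with the smallest p of the 10, was most like that of *SESN3* (Pearson's r = 0.997) among 9201 other genes with a mean of at least 10 CPM. *TFDP2* and *CADM1* followed, also at r = 0.997. A correlation over 6 libraries that fall into 2 groups largely reflects the difference between the groups, and 231 genes reached an r of at least 0.95.

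A wider list of 33 FOXO targets held 27 genes that could be tested, and 8 of them were higher and 1 lower in 4-OHT ATII CM, a share of 33.3% called beside 5.72% of all genes. This list too was chosen with earlier results of these data known, so the share is a description. The median log2 fold change of the list was 0.13, and the groups did not overlap in 18 of its 27 genes, or 66.7%, beside 22.1% of all genes. Of the 8, *TXNIP*, which limits glucose uptake, had the largest log2 fold change. It rose from 371 ± 19.9 to 525 ± 6.94 CPM (n = 3 each, SD), a log2 fold change of 0.50 (SE 0.0372, adjusted p = 2.66e-06). *MXI1*, a partner of MAX that opposes MYC, rose by a log2 fold change of 0.34 (adjusted p = 0.00689), *HBP1*, a repressor of cell cycle genes, by 0.27 (0.00171), *CDKN1B*, the CDK inhibitor p27, by 0.17 (0.0314), and *RBL2*, the pocket protein p130 of resting cells, by 0.15 (0.0462). The other 3 were *KLHL24* (log2 fold change 0.27, adjusted p = 0.0284), a substrate adaptor of a ubiquitin ligase, *GABARAPL1* (0.15, 0.00573), a protein of autophagosome membranes, and *EPAS1* (0.11, 0.0190), which encodes the hypoxia factor HIF-2α. *GADD45A*, a stress gene that acts in DNA repair and arrest, went the other way, from 112 ± 4.43 to 101 ± 3.00 CPM (log2 fold change -0.15, adjusted p = 0.0377).

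Of these 9 calls, *TXNIP*, *MXI1* and *HBP1* held in all 14 alternatives, *GABARAPL1* in 13, *GADD45A*, *KLHL24* and *EPAS1* in 10, *CDKN1B* in 8 and *RBL2* in 5. The number of calls in this list fell to 4 without 4-OHT replicate 3, and to 5 without 4-OHT replicate 1 or 2. Exons of *HBP1* overlap those of *COG5* over 15.4% of their length and exons of *RBL2* overlap those of *AKTIP* and another gene over 18.2%, each on the opposite strand, and the strand setting of the counting is not stated. *GABARAPL1* resembles its copy *GABARAPL3* over 65.9% of its transcript with 92.6% identity. Of the targets that were not tested, *PCK1* and *G6PC1*, which act in gluconeogenesis, *FASLG*, a death ligand, and *TRIM63*, a ubiquitin ligase of muscle atrophy, had no count in any library, and *IGFBP1*, a binding protein of insulin-like growth factors, had 1 or 2 counts per library. *SOD2* matched no row by symbol and was not analysed here.

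Genes that insulin and growth factors raise in other tissues were counted beside them. Of 10 such genes, 5 were lower and 0 were higher in 4-OHT ATII CM, with a median log2 fold change of -0.17, where 2.76% of all genes were lower. The choice of these 10 was also made with earlier results of these data known. *FASN*, fatty acid synthase, fell from 151 ± 5.89 to 115 ± 1.08 CPM (SD, n = 3 each; log2 fold change -0.40, SE 0.0380, adjusted p = 1.74e-05). *SCD*, the desaturase of stearic acid, fell by 0.22 on the log2 scale (adjusted p = 0.000366), *SREBF1*, the transcription factor that insulin uses to drive lipid synthesis, by 0.22 (0.00351), *HK2*, which traps glucose in the cell, by 0.25 (0.00628), and *CCND1*, cyclin D1, by 0.15 (0.00332). In 13 of 14 alternatives all 5 were called, and without 4-OHT replicate 3 *HK2* was not (adjusted p = 0.0517). Exons of *CCND1* overlap those of *LTO1* on the opposite strand over 10.3% of their length and those of *SREBF1* overlap *RAI1* over 6.92%, and *HK2* and *SCD* have processed copies that match part of their transcripts. *ACLY*, *ELOVL6*, *ACACA* and *PFKFB3* were not called.

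The pathway upstream of FOXO was counted next. Of 31 genes for insulin and IGF-1 receptors, PI3K, AKT, their phosphatases and mTOR complexes, 30 were tested, 1 was higher and 1 lower, a share of 6.67%, near the 5.72% of all genes, and the median log2 fold change was -0.040. An unadjusted p below 0.05 was found for 8 of the 30, beside 3306 of all 19072 genes, and the groups did not overlap in 9, or 30%, beside 22.1% of all genes. *PTPN1*, the phosphatase PTP1B that shuts off the insulin receptor, rose from 129 ± 1.78 to 143 ± 2.92 CPM (log2 fold change 0.15, adjusted p = 0.0199). *PIK3CD*, a catalytic subunit of PI3K, fell from 29.8 ± 0.172 to 25.3 ± 0.965 CPM (log2 fold change -0.23, adjusted p = 0.0166). Their log2 fold changes stayed between 0.13 and 0.16 and between -0.27 and -0.21 with 1 library left out, but *PTPN1* was not called without control replicate 1 or 3 or any 1 of the 4-OHT libraries (adjusted p from 0.0518 to 0.145), and *PIK3CD* was not called without 4-OHT replicate 1 (0.0765) or 3 (0.0723). Exons of *PIK3CD* overlap *CLSTN1*, which has far more counts, on the opposite strand over 1.41% of their length.

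Of 18 genes whose products modify, bind or export FOXO, or are FOXO6, 17 were tested and edgeR called 0 of them, as did DESeq2 and limma-voom, where edgeR called 5.72% of all genes. Of the 17, 5 had an unadjusted p below 0.05, beside 3306 of all 19072 genes. The 14-3-3 genes *YWHAZ*, *YWHAQ* and *YWHAB*, the most abundant, had log2 fold changes of 0.0080, -0.0043 and 0.034. The 5 with an unadjusted p below 0.05 were named after their values were seen. *EP300*, a histone acetyltransferase, had a log2 fold change of -0.25 (edgeR's adjusted p = 0.0759) and was called in 4 of 14 alternatives. The ubiquitin ligase subunit *SKP2* had one of 0.15 (0.0658), and the 14-3-3 genes *YWHAE*, *YWHAG* and *YWHAH* had log2 fold changes of -0.89 (0.249), 0.067 (0.280) and -0.12 (0.139). The value of *YWHAE* ranged from -1.26 to 0.16 with 1 library left out, and it was called in 3 of 14 alternatives. Without control replicate 2 the count in this list was 3, and without control replicate 1 it was 1. *ACACA* and *YWHAE* each have a copy of the whole transcript on an alternate contig of the assembly, where reads can be lost or split, and their values varied up to several-fold between replicates.

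**Figure D4:**
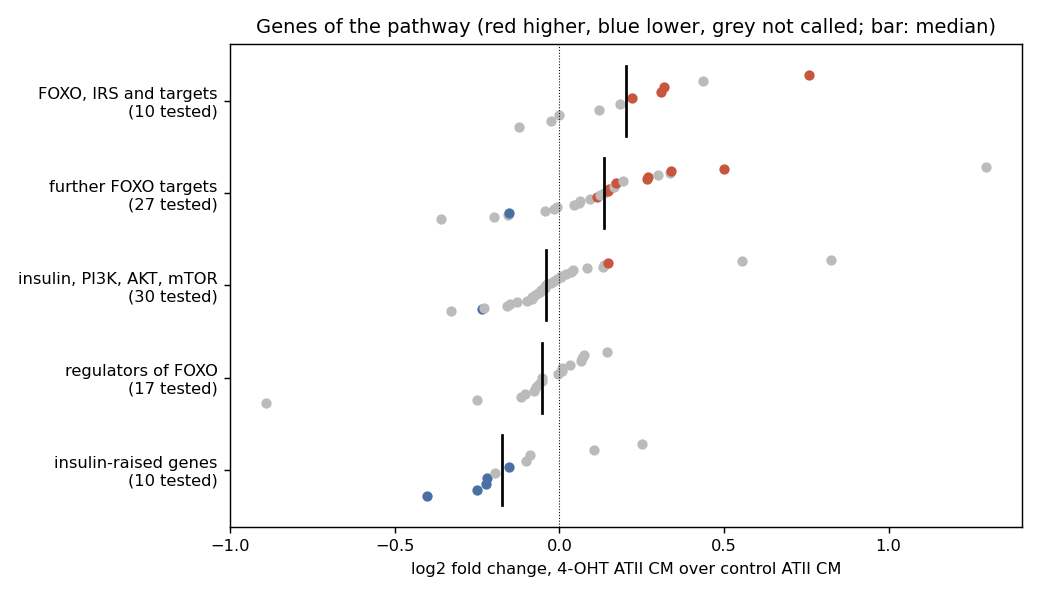
Log2 fold change (x axis) of each tested gene in the 10 followed genes and 4 wider lists (rows), red where higher, blue where lower and grey where not called, with a black bar at each list's median. The medians of the 10 genes and of the further FOXO targets lie above 0 (0.20 and 0.13), that of the insulin-raised genes lies below (-0.17), and the outlying grey points are genes of low or uneven counts such as *TNFSF10*, *PIK3R2* and *YWHAE*.

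**Figure D5:**
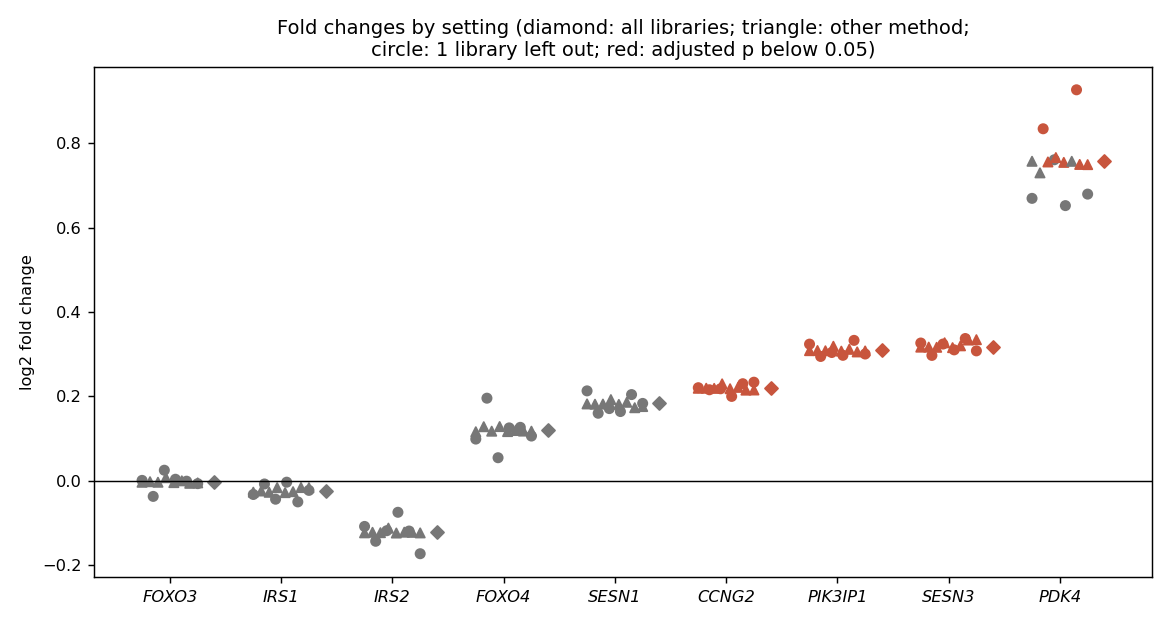
Log2 fold change (y axis) of 9 of the 10 genes with all libraries (diamonds), with another test, normalization, filter, block or length correction (triangles) and with 1 library left out (circles), red where the adjusted p was below 0.05; *FOXO1* is left out for its low counts. *PIK3IP1*, *SESN3* and *CCNG2* are red throughout, *PDK4* is red in part with values from 0.65 to 0.93, and *FOXO3*, *IRS1*, *IRS2*, *FOXO4* and *SESN1* are never red.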

How the data were processed

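RNA-Seq counts of 6 MRC5 libraries, 3 per group, were analysed. After trimming (Trim Galore) and alignment to GRCh38 by Hisat2 (version 2.1.0), the authors deposited raw counts per gene from featureCounts (version 1.6.5) without normalization, together with gene lengths. The annotation release, strand setting and treatment of multimapping reads are not given in the sources used here. Counts of 45 identifiers listed on both X and Y were added. Symbols came from GENCODE release 44, and positions from the deposited table.

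Genes with at least 10 counts summed over 6 libraries (19072 of 58676) were tested with edgeR 4.0.16 (R 4.3.3, TMM, quasi-likelihood, group as only term) with Benjamini-Hochberg adjustment and a threshold of 0.05. Standard errors were derived from the fold change and F statistic. Ratios used counts plus 0.5 and an exact permutation test (SciPy 1.17.1). Alternatives were DESeq2 1.42.0, limma-voom (limma 3.58.1), RLE size factors, other filters, each library left out, a replicate block and removal of each library's trend on gene length (splines of 5 degrees of freedom). Transcripts were aligned with minimap2 2.31 to alternate contigs (at least 90% of the transcript, 98% identity) and to transcripts of other genes (at least 10%, 90% identity). Tests were checked on simulated data.

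The genes and lists were chosen with earlier results of these data known. All 10 genes were named, and of the 4 lists of pathway, regulator, target and insulin-raised genes each gene past the threshold or, where there was none, the 3 most abundant. For the gene with the smallest p the 3 genes most like it over the libraries were named. Libraries were not stated to come from separate cultures, so p values measure the spread between libraries, which may be technical. Some genes of the lists are counted but not reported here by name.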

Additional observations from a re-analysis of the deposited data

How the results depend on the processing

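Over the alternatives the number of the 10 genes called higher was 3 or 4 and the number called lower was 0. In the 138 alternative results for single genes among the 10, 127 kept their direction and their side of the threshold, 7 (all *PDK4*) kept the direction and lost the call, and 4 (all *FOXO3*) changed sign near 0. One of these was the fit without a filter on low counts, where the log2 fold change of *FOXO3* was 0.0071, and with 1 library left out it ranged from -0.037 to 0.025. *FOXO1* has no value with filterByExpr, which removed it, and no adjusted p with DESeq2. With the replicate number as a block, 3 of the 10 genes were called, as *PDK4* had an adjusted p of 0.0520, and 985 of all genes. Same-numbered libraries did not deviate together from their group means (r = -0.0145, -0.104 and -0.0931). With 3 libraries per group, this cannot show whether same-numbered libraries shared a culture or a batch of CM. With the length trend removed, 4 of the 10 genes were called, with or without the block.

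The number of genes called among all tested was 1090, and 533 to 1530 with 1 library left out, lowest without 4-OHT replicate 2 and highest without control replicate 2. Without a filter on low counts, 4 genes of the insulin, PI3K and AKT list, 3 regulators of FOXO and 15 further FOXO targets were called, among 1601 calls in 27749 genes tested. The length correction gave 1 call among the regulators of FOXO, with or without the block. With 1 library left out, the calls ranged from 0 to 3 in the insulin, PI3K and AKT list, from 0 to 3 among the regulators of FOXO, from 4 to 9 among the further FOXO targets and from 4 to 5 among the insulin-raised genes. The causes were not tested. The 3 ratios kept their sign in all alternatives, but that of *FOXO1* to *FOXO3* moved from 0.30 to between 0.073 and 0.70 with 1 library left out. In the same fits, that of *IRS2* to *IRS1* moved from -0.098 to between -0.149 and -0.071. That of *SESN3* to *SESN1* moved from 0.13 to between 0.11 and 0.15. Depth limits *FOXO1*, where no library had more than 9 counts.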

Other observations

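*TNFSF10*, the death ligand TRAIL and a FOXO target, had 8, 3 and 7 counts in control ATII CM and 11, 19 and 23 counts in 4-OHT ATII CM, and its log2 fold change of 1.30 (standard error 0.395) had an adjusted p of 0.0705 from edgeR. *DEPTOR*, an inhibitor of mTOR, had a mean of 0.920 ± 0.157 CPM in the controls and of 1.36 ± 0.0897 CPM after 4-OHT ATII CM (SD over 3 libraries), with an adjusted p of 0.236 from edgeR. *YWHAE*, one of the 14-3-3 genes, was at 70.6 CPM in control ATII CM replicate 3 and between 14.7 and 23.7 CPM in the other 5 libraries. These genes were named after their values were seen.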
